A study of Mus musculus with 3 samples.

Results

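The Hi-C domains that hold Kcnj2 and Sox9, Bmp2, Bmp4, Msx1 and Runx2 were taken from the table of 4124 chromatin domains of the embryonic mouse limb. Each gene was given as a point on the mm9 genome, rounded to 10 kb or, for Runx2 (44.9 Mb), possibly more coarsely. The domain that holds the point was taken, or the gap where no domain holds it, with 1 domain on each side, and on chromosome 11 everything from the lower side of Kcnj2 to the higher side of Sox9. This gave 15 domains and 1 gap at 5 loci on 5 chromosomes. The points were not set against an mm9 gene annotation, so where in each gene a point lies is not known here; in RefSeq (GRCm38.p6) all 6 genes are on the chromosome of their point.

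The single group was wild-type (WT) fore- and hindlimb buds at E11.5 (days of embryonic development), a stage at which cartilage condensations of the limb begin to form. Hi-C measures how often pieces of DNA lie close together in the nucleus. The 3 libraries were technical replicates of 1 pool of dissected buds (8 embryos in the protocol, 10 in the design text), and their labels also name G4 embryonic stem cells beside the limb bud source. The study looked for architectural stripes, lines in a contact map where 1 edge of a domain meets much of its length. The deposited values join all libraries, so no value has a replicate error, and the number of contacts behind each is unknown. The table holds no expression, so the tissue label could not be checked against marker genes.

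Sox9 is the transcription factor that commits mesenchyme to cartilage, and Runx2 is the one that directs bone-forming cells. Bmp2 and Bmp4 are secreted ligands of the bone morphogenetic protein pathway, which acts through receptor kinases and Smad proteins and shapes the limb's digits, cartilage and cell death. Msx1 is a homeobox factor and a known target of that pathway in limb mesenchyme. Kcnj2 encodes an inward rectifier potassium channel and is the neighbour of Sox9 across a large stretch with few genes. Genes of this kind are often controlled from far away by enhancers, and domains limit which enhancers a promoter meets.

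A domain's class is 1 (stripe) where the authors' random forest gave it a probability of 0.5 or more, and 0 otherwise. Of the 15 domains, 6 were class 1, which is 40% (95% Wilson interval 19.8 to 64.3%), beside 35.1% of all domains (1448 of 4124). The members' share was thus near that of the whole table, the interval is wide, and without the Msx1 locus the share was 25%. With a probability of 0.9 or more as the rule, it was 13.3% of the 15 domains, beside 16.2% of all domains. The 6 were unevenly placed: 3 of 3 at Msx1, 2 of 3 at Bmp2, 1 of 3 at Bmp4, and 0 of 4 at Kcnj2 and Sox9 and 0 of 2 at Runx2. Of the 6 points, 2 lay in a class 1 domain, those of Bmp4 and Msx1.

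**Figure D1:**
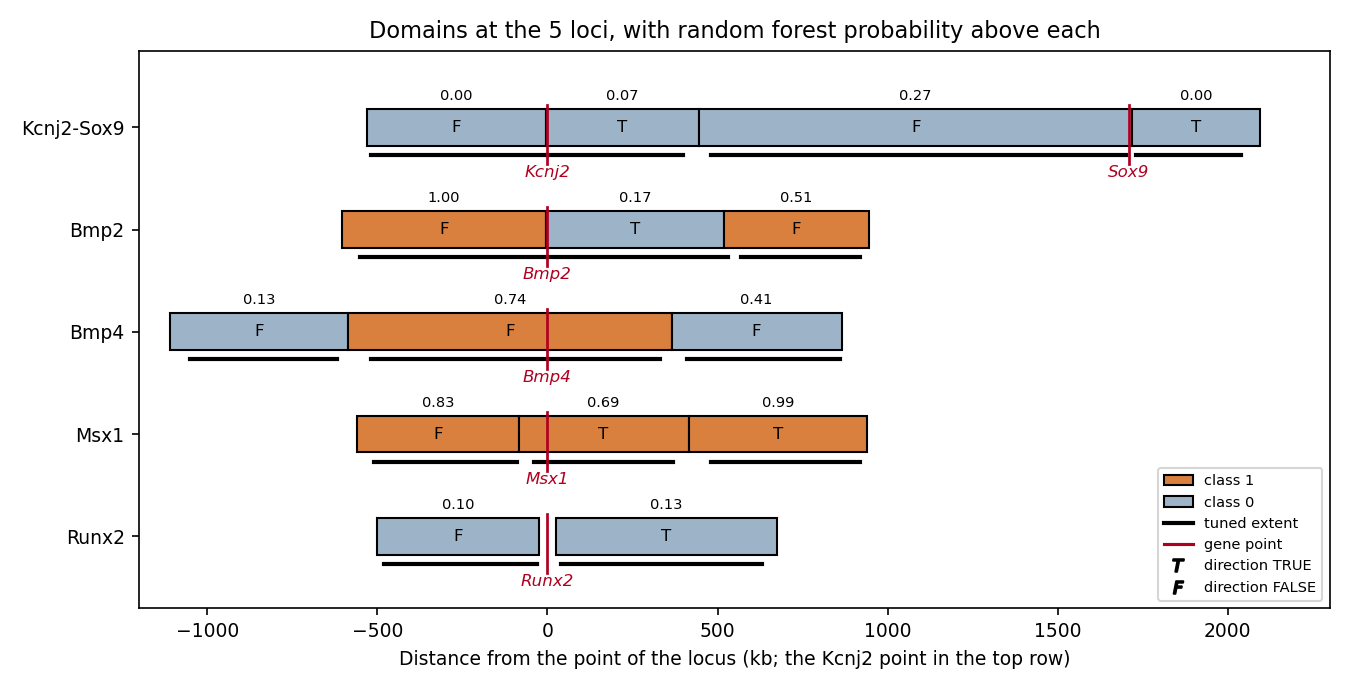
Domains at the 5 loci by distance in kb from the point of the locus (red lines; the top row is drawn from the Kcnj2 point). Boxes are domains, orange for class 1 and blue for class 0, with direction (T or F) inside and the random forest probability above; black lines are the tuned extents. The Kcnj2, Sox9 and Bmp2 points lie 5, 10 and 5 kb from a domain edge, and the Runx2 point lies in a gap.

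Starts of 4 of the 6 genes had a sequence in the RefSeq table (GRCm38.p6). They are shown because several of the points lay at domain edges. Such edges are known to be often bound by CTCF, a protein that halts cohesin. Of the genes whose points lay within 10 kb of an edge, however, only Kcnj2 is shown, as Sox9 and Bmp2 had no sequence. Each run gives 250 bases before and 50 after a gene's start, 5′ to 3′ on the gene's strand, in lower case. Capitals mark the letters CCNNNAGNNGGC, a spaced pattern from the core of the CTCF recognition sequence, searched on both strands.

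Kcnj2, chr11:111065914-111066213, plus strand: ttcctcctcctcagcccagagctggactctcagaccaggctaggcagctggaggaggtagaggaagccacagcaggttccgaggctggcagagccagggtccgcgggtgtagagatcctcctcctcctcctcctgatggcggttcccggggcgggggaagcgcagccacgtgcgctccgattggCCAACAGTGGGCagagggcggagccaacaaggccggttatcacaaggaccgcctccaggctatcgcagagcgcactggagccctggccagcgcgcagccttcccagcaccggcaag
Msx1, chr5:37824536-37824835, minus strand: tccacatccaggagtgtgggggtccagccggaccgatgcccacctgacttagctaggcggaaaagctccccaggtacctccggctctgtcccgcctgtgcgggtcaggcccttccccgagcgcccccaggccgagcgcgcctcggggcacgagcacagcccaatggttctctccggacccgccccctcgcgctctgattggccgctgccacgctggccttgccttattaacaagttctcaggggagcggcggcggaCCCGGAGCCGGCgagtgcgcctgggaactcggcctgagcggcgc
Runx2, chr17:44814578-44814877, minus strand: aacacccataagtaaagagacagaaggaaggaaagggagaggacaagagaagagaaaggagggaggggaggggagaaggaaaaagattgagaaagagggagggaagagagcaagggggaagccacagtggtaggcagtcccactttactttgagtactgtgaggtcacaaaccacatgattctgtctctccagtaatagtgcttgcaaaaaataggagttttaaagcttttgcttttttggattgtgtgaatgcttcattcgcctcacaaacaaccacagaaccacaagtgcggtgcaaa
Bmp4, chr14:46390620-46390919, minus strand: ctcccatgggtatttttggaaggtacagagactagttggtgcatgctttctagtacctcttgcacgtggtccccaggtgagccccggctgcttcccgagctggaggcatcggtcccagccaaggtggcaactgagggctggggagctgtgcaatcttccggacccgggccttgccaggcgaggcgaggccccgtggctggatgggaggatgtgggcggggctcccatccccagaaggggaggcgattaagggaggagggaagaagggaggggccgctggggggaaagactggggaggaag

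The pattern was found once in the Kcnj2 window, beginning 66 bases before the start, and once in the Msx1 window, inside the first bases of the transcript. It was not found in the Runx2 and Bmp4 windows, and 8.61% of all 32851 promoter windows hold it. Of the 4 windows that of Msx1 was the richest in the dinucleotide CG, with 29, and Kcnj2 had 18 and Bmp4 12. Runx2 had 2, against a median of 7 over all windows. These are matches of letters, not measured binding, and the windows were not placed on mm9.

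The Sox9 and Kcnj2 points lay at opposite ends of a pair of neighbouring domains. Kcnj2 (110.93 Mb on chromosome 11) lay 5 kb above the lower edge of a domain of 450 kb, from 110925001 to 111375000. Sox9 (112.64 Mb) lay 10 kb below the upper edge of the next domain, from 111375001 to 112650000, whose 1275 kb made it 2.83 times as long as the Kcnj2 domain. These distances are finer than the 25 kb grid of the edges, and by the tuned edges the Sox9 point lay outside this domain. The name Sox9 domain thus rests on the edges as given. The points are 1.71 Mb apart, and 74.0% of that distance is in the Sox9 domain. By gene order in RefSeq (GRCm38.p6), 7 annotated genes lie between Kcnj2 and Sox9. These are 5 long noncoding RNAs, 1 pseudogene and the single protein-coding model Gm11677. Kcnj16, another potassium channel gene, is the protein-coding neighbour on the other side of Kcnj2, and Slc39a11 that on the other side of Sox9.

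The Sox9 domain was longer than 94.4% of all domains and was class 0, with a probability of 0.27. Its imbalance, a score that the authors gave each domain, was 0.373, higher than in 56.2% of domains. Its imbalance difference, a companion score, was 0.357 and ranked much higher, above 86.6% of all domains, and only 10 of the 2676 class 0 domains had a higher one. Among the 360 domains over 1000 kb, it stood above 81.4% in imbalance difference and above 95.3% in cosine (0.821), and 28.1% of those long domains were class 1. The labels and headers do not say how the authors computed these scores, so a rank is all that can be read from them.

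The Kcnj2 domain lay close to the middle of the table in both imbalance scores. Its imbalance of 0.308 was above that of 48.8% of domains and its imbalance difference of 0.138 above that of 50.7%, with a probability of 0.07. The Kcnj2 point lies within its rounding of the lower edge, so the table does not settle whether the gene's start is in this domain or in the one below. The domain on the lower side of Kcnj2 (110400001 to 110925000, 525 kb) and the one on the higher side of Sox9 (112650001 to 113025000, 375 kb) both had a probability of 0.00, which 299 domains of the table share. Their imbalance scores were 0.181 and 0.227. Their cosine scores, 0.898 and 0.884, were among the highest of the table, above those of 96.7% and 95.3% of domains. The domain above Sox9 was also the only one of the 15 that was shorter than the overall median length.

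These 4 class 0 domains were part of the longest run of class 0 domains in the table. A stretch of 4 neighbouring domains with no class 1 is common (17.7% of all such stretches). At Kcnj2 and Sox9, however, the run went on for 7 domains below and 7 above, giving 18 domains from 107875001 to 116350000 on chromosome 11. No other of the 930 runs of class 0 domains was as long, and the next had 15. The run held 2 gaps; where a gap ends a run, the stretch at Sox9 had 15 domains and was again the longest, before one of 12. By span (8475 kb) it was not the widest, since 6 other runs covered as much sequence or more. This run was singled out after its values were seen, and how long a run a random order of classes would give was not computed.

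Probabilities in the run were between 0.00 and 0.35 with a median of 0.08, and 11 of its 18 domains had 0.1 or less. Imbalance ran from 0.0164 to 0.459. A run ends at class 1 domains by its rule, and here both had a probability far above the threshold. The domain just below the run (107350001 to 107875000) was class 1 with a probability of 1.00 and an imbalance of 1.12. The next one above it (116400001 to 116725000) was class 1 with 0.99 and 0.836. The highest probability in the run was 0.35, so moving the threshold to 0.4 or 0.6 could not change its 18 domains.

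**Figure D2:**
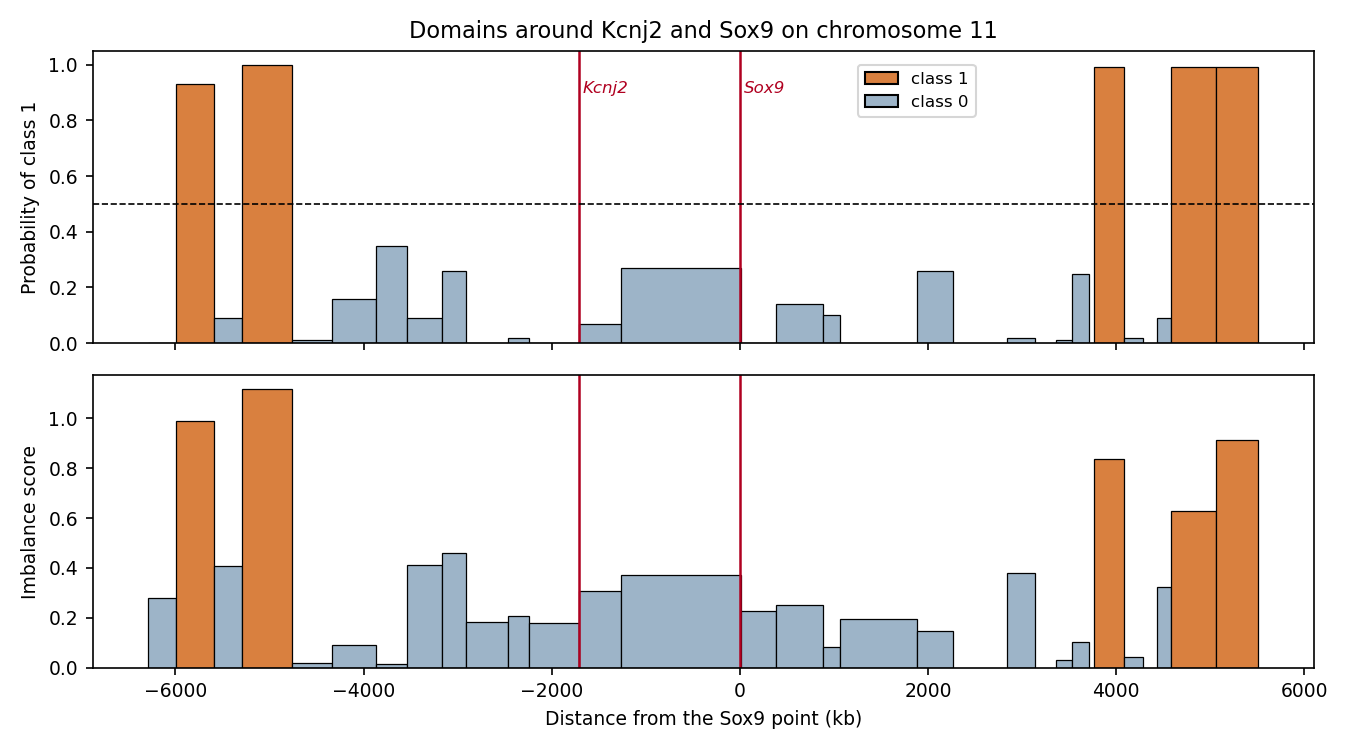
Random forest probability of class 1 (top) and imbalance score (bottom) of the domains around Kcnj2 and Sox9, by distance in kb from the Sox9 point. Bar width is domain length, orange is class 1, blue is class 0 and the dashed line is the class threshold of 0.5. The 18 blue domains between the orange ones nearest to the points on either side have probabilities of at most 0.35.

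Bmp2 stood at the edge between a class 1 domain of very high imbalance and a class 0 domain. Its point (133.38 Mb on chromosome 2) lay 5 kb above the lower edge of a class 0 domain of 525 kb, from 133375001 to 133900000. That domain had a probability of 0.17, an imbalance of 0.425 and an imbalance difference of 0.194, above 62.1% and 63.4% of domains. Its imbalance was thus just below 0.429, the lowest value that any class 1 domain has outside a set of low-imbalance ones. The domain on the lower side (132775001 to 133375000, 600 kb) was class 1 with a probability of 1.00. Its imbalance of 1.35 was above that of 97.4% of all domains and 92.7% of class 1 domains. As the Bmp2 point is rounded to 10 kb and lies 5 kb from the edge they share, the table does not settle which of the 2 domains holds the gene's start. By gene order, the protein-coding neighbours of Bmp2 are Fermt1 and Hao1.

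The domain on the higher side of Bmp2 (133900001 to 134325000, 425 kb) was class 1, with a probability of 0.51, just above the threshold. Its imbalance was 0.107, lower than in most domains of the table (18.7% were below it), and its imbalance difference of 0.0346 was above that of 14.0%. It belonged to the 92 class 1 domains with an imbalance below 0.2, and 76.1% of these had a lower imbalance. Without that set, 5 of the 15 domains were class 1, or 33.3%, beside 32.9% of all domains (1356 of 4124).

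Bmp4 lay deep inside a long class 1 domain. The domain ran from 46425001 to 47375000 on chromosome 14 (950 kb, longer than 89.8% of domains), and the point at 47.01 Mb was 365 kb from the nearest edge. It was class 1 with a probability of 0.74. Its imbalance of 0.645 was above that of 79.1% of all domains, but below the middle of class 1, of which 40.9% were lower. Its imbalance difference of 0.601 was the highest of the 15 domains, above 97.6% of the table. Its cosine score was 0.864, and 14 of the 1448 class 1 domains had a higher one. It was also the only class 1 member with a cosine above the overall median.

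Both domains beside it were class 0 and below the overall median in imbalance difference. On the lower side (45900001 to 46425000, 525 kb) the probability was 0.13 and the imbalance difference 0.111. On the higher side (47375001 to 47875000, 500 kb) the probability was 0.41, the nearest to the threshold among class 0 members, at an imbalance of 0.147. That domain ended at a gap of 475 kb. All 3 domains of the Bmp4 locus had direction FALSE. The protein-coding genes next to Bmp4 are Ddhd1 and Cdkn3.

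Msx1 was the locus with the most domains called class 1 at the threshold of 0.5. Its point (38.21 Mb on chromosome 5) lay in a class 1 domain of 500 kb from 38125001 to 38625000, with a probability of 0.69, an imbalance of 0.551 and a cosine of 0.570. On the lower side (37650001 to 38125000, 475 kb) the probability was 0.83 and the imbalance 0.512. Within class 1 these imbalance scores were low. Only 21.5% of class 1 domains were below the Msx1 domain, and 14.2% below the one on its lower side. On the higher side (38625001 to 39150000, 525 kb) the probability was 0.99 and the imbalance 1.51, above 98.3% of all domains and the highest of the 15. The cosine score of that last domain, 0.391, was the lowest of the 15.

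A set of 3 neighbouring domains that are all class 1 made up 4.43% of such sets in the table. At Msx1 the class 1 stretch had 4 domains that share boundaries, from 37325001 to 39150000, and 13 of the 1068 such stretches in the table were that long or longer. With gaps allowed it had 5 domains, and 12 of 926 runs were that long or longer. Its lowest imbalance was then 0.0959 and its lowest probability 0.54. This stretch too was singled out after its values were seen. The Msx1 domain had the lowest probability of its own 3. In imbalance it was above the neighbour on the lower side (0.551 against 0.512) and below that on the higher side. Cytl1 and Stx18 are its protein-coding neighbours by order.

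The Runx2 point (44.9 Mb on chromosome 17) lay in a gap of 50 kb between domains, 25 kb from either. Gaps hold 8.36% of positions in the table, and Runx2 was the 1 of the 6 points in one. Its point was given with fewer digits than the others, so whether Runx2 lies in the gap or in a domain beside it is not settled. A point 25 kb higher or lower would fall exactly on an edge of the gap. Only the rule for positions on an edge puts the higher one in the class 0 domain above and the lower one in the gap. On the lower side (44400001 to 44875000, 475 kb) the domain had a probability of 0.10 and an imbalance of 0.298. On the higher side (44925001 to 45575000, 650 kb) it had 0.13 and 0.236. Both domains were class 0, both imbalance scores were below the overall median of 0.317, and both cosine scores (0.761 and 0.742) were above the overall median of 0.652. Each of these domains also ended at a gap on its other side, of 125 kb below and 275 kb above. The Runx2 neighbours by order are Clic5 and Supt3.

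**Figure D3:**
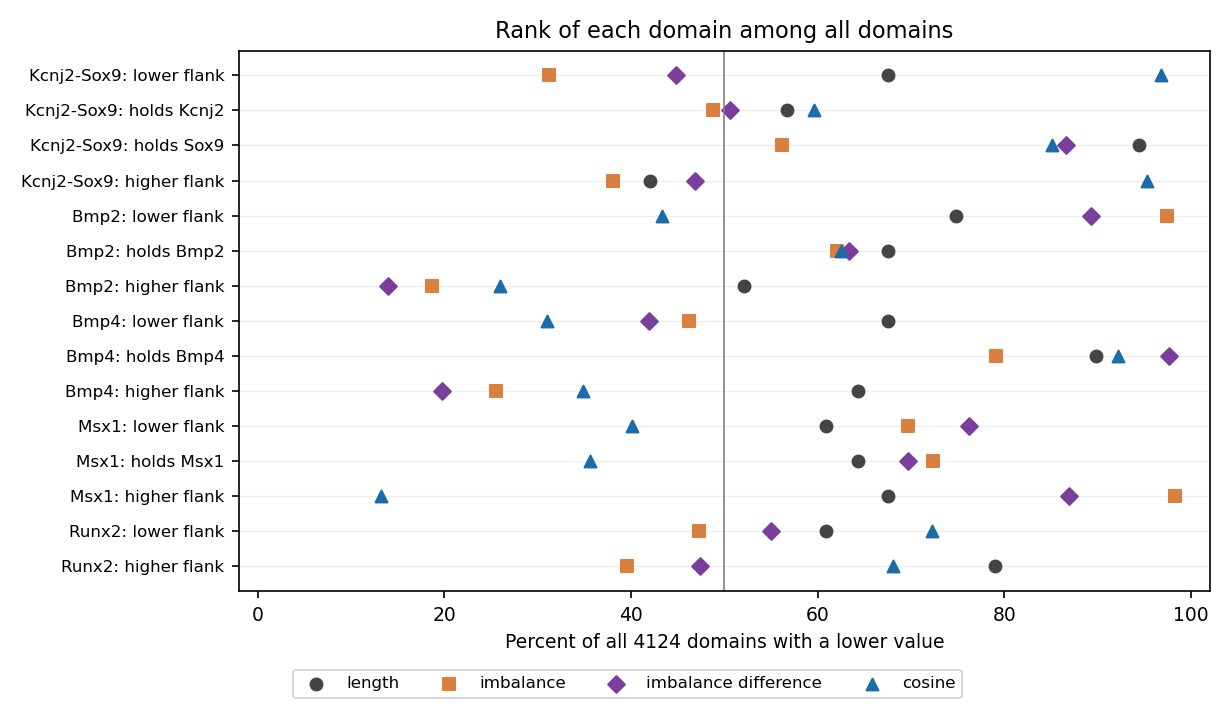
Rank of each of the 15 domains in length, imbalance, imbalance difference and cosine, as the percentage of all 4124 domains with a lower value (domains without a cosine left out for cosine); lower and higher flank mean the side of lower and higher coordinate. The Bmp4 domain is high in all 4 measures, while the domain above Msx1 pairs the highest imbalance with the lowest cosine.

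Taken as a set, the 15 domains had a median length above that of the table and were ordinary in their scores. The median length was 525 kb (95% order-statistic interval 475 to 600 kb), beside 400 kb over all domains, and 14 of the 15 were above that. The 5 domains that hold a point had a median length of 525 kb, and the 10 that flank them one of 512.5 kb (interval 425 to 600 kb). A position falls more often in a long domain than in a short one, and the domain that holds the median base of the table is 600 kb long. Beside that value the domains that hold a point were not long. The value does not apply to the flanking domains, which were not picked by holding a point. Their interval lies above 400 kb. The reason for the length of the 15 was not tested. The median imbalance was 0.308 (interval 0.227 to 0.551), beside 0.317 in the table, and the median imbalance difference 0.156 (0.12 to 0.357), beside 0.137. The median cosine was 0.70 (0.566 to 0.821), beside 0.652. These intervals treat domains as the unit, neighbours included, and hold no error between libraries. All 3 score intervals take in the median of the table.

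**Figure D4:**
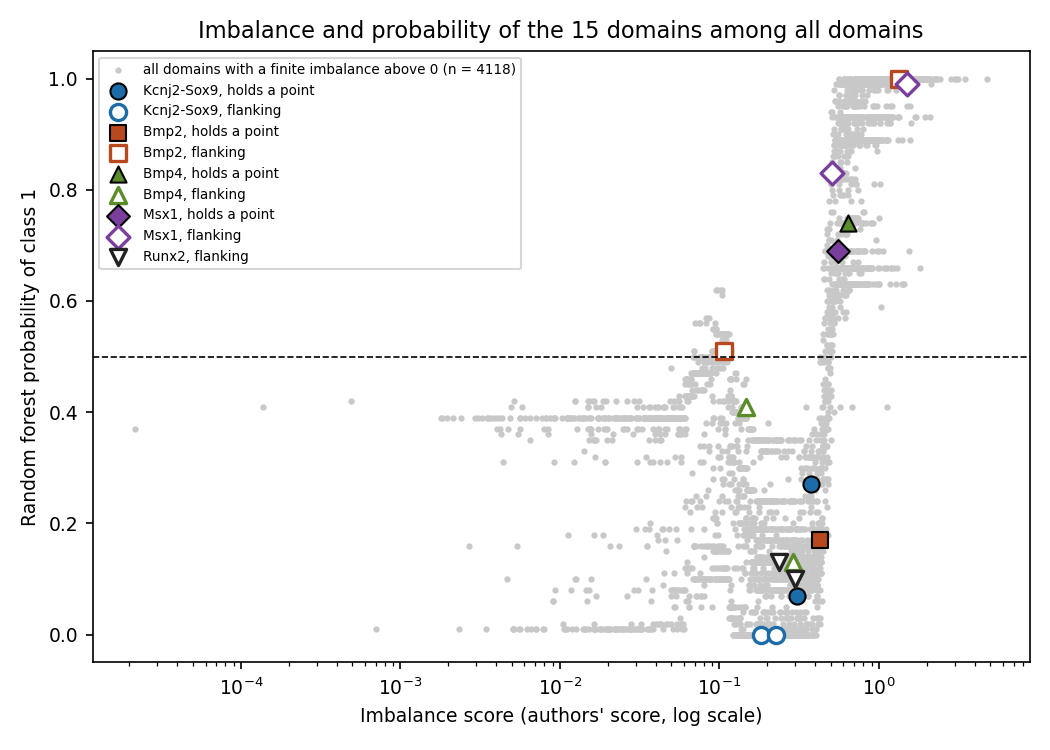
Imbalance score (log scale) and random forest probability of the 15 domains, filled where they hold a point and open where they flank one, over the 4118 domains with a finite imbalance above 0 and a probability (grey); the dashed line is the class threshold of 0.5. The domains around Kcnj2, Sox9 and Runx2 lie below 0.3 in probability, and the open Bmp2 square at 0.51 belongs to the low-imbalance part of class 1.

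The points of Kcnj2, Sox9 and Bmp2 lay at domain edges. Within 10 kb of a domain edge were 3 of the 6 points, beside 5.32% of all positions on a grid of 10 kb. With tuned edges, a second set of edges that the authors placed on a grid of 10 kb, it was again 3 of 6, beside 10.0%. The tuned start of the Kcnj2 domain and that of the Bmp2 domain fell on the points themselves. The tuned end of the Sox9 domain (112630000) lay 10 kb below the Sox9 point, so by tuned edges Sox9 was outside both domains around it. The shares above are over all positions, not over gene starts.

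Directions at the boundaries nearest to the points mostly followed one order, though not all of these points lay at an edge. The Msx1 point was 85 kb from its nearest edge, and the Runx2 point was in a gap, 25 kb from either side. The boundary nearest to a point had a domain of direction FALSE on its lower side and one of direction TRUE on its higher side at Kcnj2, Sox9, Bmp2, Msx1 and Runx2, and FALSE on both sides at Bmp4. That is 5 of 6 points (83.3%, 95% Wilson interval 43.6 to 97.0%), beside 24.4% of all positions and 25.6% of all neighbouring pairs of domains. The Kcnj2 and Sox9 boundaries are the ends of 2 adjoining domains, so their points are not independent of each other. Over all 15 domains 6 had direction TRUE, or 40%, beside 49.2% in the table. The labels and headers do not say which side of a domain a direction names. This order was noticed after the values were seen, and the interval treats the points as independent. It therefore cannot serve as a test of the order.

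The tuned edges came close together at Kcnj2 and Bmp2. Where domains share a boundary, tuned edges usually leave a strip between them. It was 10 kb wide at Kcnj2, 10 kb at Bmp2, 30 kb at Sox9 and 50 kb at the boundary nearest to Msx1. At the other shared boundaries of the loci it was 40 kb between the Bmp2 domain and the next, 80 kb between the Kcnj2 and Sox9 domains, 80 and 100 kb on the sides of Bmp4 and 110 kb above Msx1. A strip narrower than 10 kb was found at 5.74% of the 3084 shared boundaries. A further 64, those at Kcnj2 and Bmp2 included, had exactly 10 kb, so these strips were narrow but not rare. In the whole table the median strip was 50 kb (quartiles 30 and 70 kb) where FALSE is followed by TRUE, as at those 4 boundaries, and 70 kb (50 and 90 kb) where TRUE is followed by FALSE. The 2 gap edges around Runx2 do not meet, and their tuned edges were 70 kb apart.

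**Figure D5:**
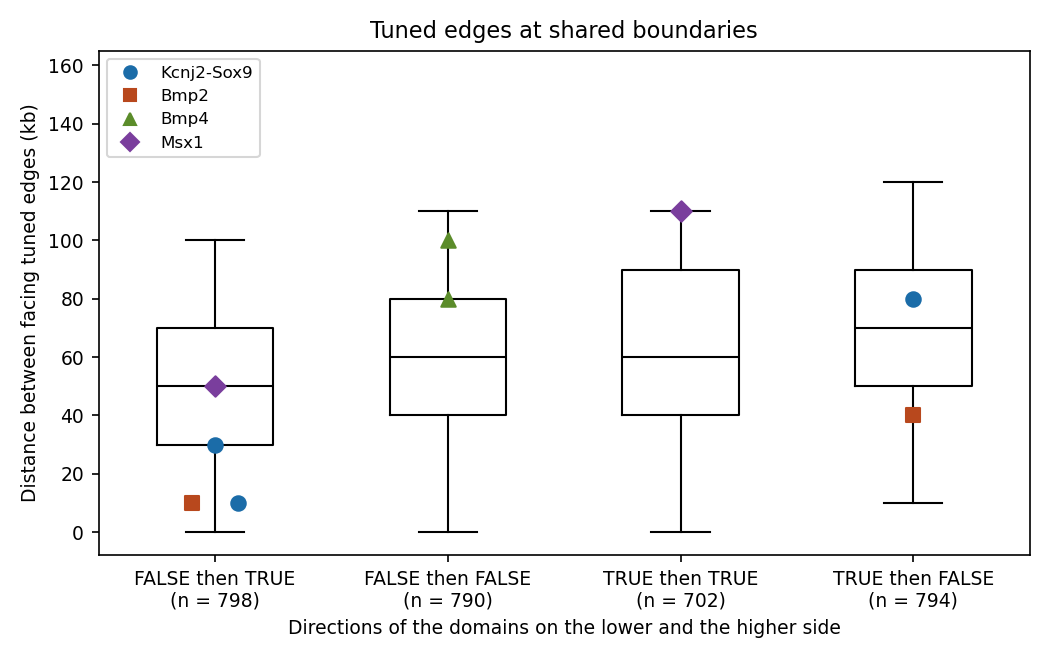
Distance in kb between the facing tuned edges of neighbouring domains that share a boundary, by the directions of the domains on the lower and higher side. Boxes show the median and quartiles and whiskers the 5th and 95th percentiles over all 3084 shared boundaries; symbols are the 9 shared boundaries at the loci. The lowest symbols, at 10 kb, are the boundaries beside Kcnj2 and Bmp2.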

How the data were processed

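One deposited table of chromatin domains, made from 3 Hi-C libraries of 1 group, was analysed. Per the submitters' processing notes the authors used Juicer and BWA on mm9; their versions are not given here. The name of the deposited table gives TopDom as the domain caller, with a quantile threshold of 0.98 and a random forest at 0.5. The authors deposited, per the file headers, a probability as a fraction from 0 to 1 and 3 scores (imbalance, imbalance difference and cosine) beside the class and direction; the formulas of the scores are not stated there. The edges are multiples of 25 kb, and the tuned ones of 10 kb. Starts are written counting from 1.

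Percentiles are the percentage of all domains with a lower value (Python 3.11.15, pandas 2.3.3, scipy 1.17.1). The code was tested on a simulated table. Shares have 95% Wilson intervals and medians 95% order-statistic intervals. No test was made, since the table has no replicates. All 6 genes of the rule, at 5 loci, are named with all their domains. The loci were chosen, and the comparisons set, with earlier results of these data known. Other genes of the pathways were not placed, since no mm9 annotation was used here. Neighbouring genes and sequences are from RefSeq (GRCm38.p6), by order only.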

Additional observations from a re-analysis of the deposited data

How the results depend on the processing

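No paired analysis was possible because the table joins the libraries of a single group, and leaving out a library was not possible for the same reason. At a probability of 0.9 or more, 13.3% of the 15 domains were class 1, beside 16.2% of all domains. Class 1 domains alone had a median imbalance of 0.598, as the classes differ in that score. Tuned edges gave a median length of 450 kb, since they mostly lie inside the domains. Leaving out 1 locus at a time, with Kcnj2 and Sox9 as 1 locus, gave class 1 shares of 25% (without Msx1) to 54.5% (without Kcnj2 and Sox9) direction TRUE shares of 33.3 to 50%, and medians of 512.5 to 525 kb in length, 0.294 to 0.425 in imbalance, 0.133 to 0.194 in imbalance difference and 0.595 to 0.727 in cosine. It gave shares of points whose nearest boundary runs from FALSE to TRUE of 75 to 100%, the highest without Bmp4. The class 0 run at Sox9 had to keep its 18 domains with the threshold at 0.4 or 0.6 or with the low-imbalance set as class 0. This follows from the values in it and at its ends. Other runs could change under these settings, and none was longer. Moving the points by 5 kb left 2 or 3 of them within 10 kb of an edge. Moving them down by 25 or 100 kb put Bmp2 into the class 1 domain below it and Kcnj2 into the class 0 domain below it. Moving them up by as much put Sox9 and Runx2 into the class 0 domains above them, though at 25 kb the Runx2 point fell exactly on the edge. Moving them down by 100 kb put Runx2 and Msx1 into the domains below, of class 0 and class 1. Bmp4 kept its domain in all 4 moves. Ranking within a chromosome or among the 10% of domains nearest in length moved the percentiles of domains that hold a point by at most 8.31 points. The alternatives of the run, of the edges and of the directions, and that with the low-imbalance set as class 0, were chosen after seeing the data. With the depth unknown, nothing can be said of which calls it limits.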
